A study of Homo sapiens with 12 samples.

Results

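The NRG2-PURA-CYSTM1 locus is a run of 10 neighbouring genes on the long arm of human chromosome 5, from UBE2D2 to HBEGF. Its members were taken by position and by the study's naming of this region for MED30, and they were followed in genomic order as UBE2D2, CXXC5, PSD2, NRG2, MALINC1, PURA, IGIP, CYSTM1, PFDN1 and HBEGF. They are 10 of the 28278 gene symbols in the tables of raw counts and of the 25056 symbols in the scaled tables. All 10 were tested in every comparison, PSD2 and IGIP in the scaled tables only through the group where they were high. In the RefSeq annotation of GRCh38.p14 they span 820.364 kb, at chr5:139526240-140346603.

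The genes do not belong to a shared pathway. NRG2 and HBEGF encode growth factors of the EGF family, which bind ERBB receptor tyrosine kinases at the cell surface: neuregulin-2 binds ERBB3 and ERBB4, and heparin-binding EGF-like growth factor binds EGFR and ERBB4. PURA encodes a protein that binds purine-rich DNA and RNA, IGIP a small secreted peptide named for inducing immunoglobulin A, CYSTM1 a small cysteine-rich membrane protein, PSD2 an exchange factor for ARF6, UBE2D2 a ubiquitin-conjugating enzyme, CXXC5 a zinc finger protein that binds unmethylated CpG, and PFDN1 a subunit of the chaperone prefoldin. MALINC1 is a long non-coding RNA.

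Nascent transcription was measured by precision run-on sequencing (PRO-seq), in which nuclei extend the RNA held by engaged polymerases with biotin-labelled nucleotides and the labelled RNA is sequenced. The 12 libraries came from Mia PaCa-2, a human pancreatic carcinoma line, carrying stably integrated doxycycline (Dox)-inducible MED30, MYC with a 3xHA tag, or both. Each of these 3 lines gave 2 control libraries without Dox (Ctl_for_MED30OE, Ctl_for_MYCOE and Ctl_for_MED30&MYCOE) and 2 libraries after Dox at 0.5 μg/ml (MED30OE, MYCOE and MED30&MYCOE). The methods give 1 day of Dox for these libraries, and the results text of the same study gives a longer induction, which the labels do not settle. MED30 is a subunit of Mediator, the complex that links transcription factors to RNA polymerase II, and MYC is a transcription factor. All cells carried the integrated construct, controls included, and gene counts do not separate the introduced copy from the cell's own gene. No line without a construct was treated with Dox here, so Dox itself and the induced gene cannot be told apart. The labels do not say that the 2 libraries of a group came from separate cultures, so p-values measure the spread between these libraries, which may be technical.

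The induced genes were examined first because they check the labels. MED30 itself rose by 4.45 on the log2 scale in the libraries labelled MED30 (limma, adjusted p = 1.64e-09), by 4.46 with the label MYC (edgeR quasi-likelihood test, adjusted p = 1.58e-21) and by 4.78 with the label MED30&MYC (adjusted p = 1.75e-21). Transcription of MYC fell by 0.56 with the label MED30 (adjusted p = 0.000437), and with the label MYC it also fell by 0.57 (adjusted p = 7.64e-05), whereas it rose by 1.16 with the label MED30&MYC (adjusted p = 1.89e-09). The libraries labelled MYC therefore go against their label, and every direction drawn from them below is a direction in libraries with more MED30 and less MYC transcription after Dox. The scaled values of each library labelled MED30 also stood in a nearly fixed ratio to the counts of the same-numbered library labelled MYC, with a median of 0.245 to 0.292 and an interquartile range of 0.066 to 0.087 on the log2 scale, against 0.162 to 0.503 for the other libraries labelled MYC. Over the 27 of 40 member values of at least 50, this ratio was 0.867 to 1.03 times its median. Over all 40 it was 0.732 to 1.06 times, and the NRG2 controls were lowest in it (0.788 and 0.732), which is where the response of NRG2 differed between the labels. The members' responses under these 2 labels are therefore given side by side and are not independent of each other. The raw counts totalled 20616713 to 29881914 per library except in MED30&MYC control 2, which held 1257499, and the members' changes in that line are therefore also given without it. The epithelial keratins KRT8 (181 to 276 of every 1000000 counts) and KRT18 (81.0 to 140 of every 1000000) were present in the raw count libraries, CDKN2A and CDKN2B, which this line is known to lack, were at 11 counts or fewer, and the islet hormones INS and GCG were at 0. The mesenchymal marker VIM was present too (494 to 1029 of every 1000000). Of the acinar markers, PRSS1 was at 1 count or fewer and CPA1 at 3.18 to 9.91 of every 1000000, and COL1A1, PDGFRB, PECAM1 and PTPRC were at 3.38 or less.

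The genes lie close together and partly share DNA, which sets what a count can tell. PURA and IGIP follow each other on the plus strand with 0.317 kb between them. PSD2 on the plus strand and NRG2 on the minus strand end 2.314 kb apart, so that they run towards each other. The GENCODE models of CYSTM1 and PFDN1 overlap by 37.018 kb on opposite strands, whereas the RefSeq spans lie 1.245 kb apart, and the models of MALINC1 and PURA overlap by 1.498 kb on opposite strands in GENCODE and lie 6.096 kb apart in RefSeq. Counting is stated to use the sense strand, and reads past the end of a gene on the same strand, as between PURA and IGIP, cannot be told from those of the next gene.

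The sequence just before the start also differed among members. Of the 10 members, 9 had promoter windows in the RefSeq table (16 windows in all, since CXXC5 and NRG2 have several starts), and PURA was not among them. Shown are 200 bases, from 250 to 51 bases before the RefSeq start, 5′ to 3′ on the gene's own strand with each CpG in capitals, for a gene that rose in the libraries labelled MED30 and MYC (NRG2, chr5:140043350-140043549, minus strand), a gene that rose with MED30&MYC (CYSTM1, chr5:140174938-140175137, plus strand), a gene that fell (HBEGF, chr5:140346654-140346853, minus strand) and IGIP (chr5:140125687-140125886, plus strand), which sets itself apart by its composition.
NRG2: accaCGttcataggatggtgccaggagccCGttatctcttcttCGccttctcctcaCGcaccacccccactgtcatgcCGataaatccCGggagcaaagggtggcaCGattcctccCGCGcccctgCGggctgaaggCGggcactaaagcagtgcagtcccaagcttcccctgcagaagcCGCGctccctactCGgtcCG
CYSTM1: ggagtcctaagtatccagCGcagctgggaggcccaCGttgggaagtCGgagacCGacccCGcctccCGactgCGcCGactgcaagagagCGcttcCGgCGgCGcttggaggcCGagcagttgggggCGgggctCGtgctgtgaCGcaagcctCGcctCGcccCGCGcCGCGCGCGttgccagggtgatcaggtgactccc
HBEGF: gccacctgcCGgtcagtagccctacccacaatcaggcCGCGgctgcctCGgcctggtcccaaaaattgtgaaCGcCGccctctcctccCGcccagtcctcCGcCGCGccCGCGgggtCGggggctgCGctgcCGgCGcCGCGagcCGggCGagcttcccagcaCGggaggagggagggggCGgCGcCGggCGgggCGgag
IGIP: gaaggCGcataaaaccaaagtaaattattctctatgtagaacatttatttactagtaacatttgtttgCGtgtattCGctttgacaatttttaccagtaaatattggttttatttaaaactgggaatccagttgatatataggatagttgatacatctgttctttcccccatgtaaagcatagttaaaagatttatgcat
The NRG2 stretch held 15 CpG, that of CYSTM1 24 and that of HBEGF 26, while the IGIP stretch held 3, against a median of 8 over the same stretch of all 35116 RefSeq promoters. Over the whole 250 bases before the start, GC content was 65.2% for NRG2, 72.4% for CYSTM1, 76.4% for HBEGF and 34.4% for IGIP, with a median of 58% over all promoters. The E-box CACGTG, the palindromic sequence that MYC and MAX prefer, was in 0 of the 16 windows and in 6.34% of all promoters. The variant CACGCG, searched on both strands, was in 1 CXXC5 window and in 9.72% of all promoters. These are matches of letters in short windows and say nothing about binding.

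Among the 10 members, PSD2, NRG2 and MALINC1 rose after Dox with the labels MED30 and MYC, and the others did not pass or fell. In the libraries labelled MED30 these 3 of 10 passed and no member fell, where 16% of the 14780 genes tested passed in either direction, 7.37% rising and 8.63% falling. With the label MYC HBEGF fell as well, which makes 4 of 10 where 13% of the 19318 genes tested passed, 5.32% rising and 7.71% falling. With the label MED30&MYC, PSD2 and CYSTM1 rose and HBEGF fell, which makes 3 of 10 where 6.74% of genes passed, 3.65% rising and 3.09% falling. The median change of the members was 0.27, 0.17 and 0.39 on the log2 scale in these 3 comparisons, against 0.01, 0.01 and 0.02 over all genes tested. The study named this region when reporting higher PURA and CYSTM1 and a mild activation of NRG2 with MED30 overexpression. The members were thus not chosen apart from such changes, and their counts and medians are a description, not a test of the locus. The study also reports IGIP as inactive at baseline and not activated by MED30. Its account of PURA and CYSTM1 rests as well on MYC binding and on expression after MYC knockdown, which these libraries do not measure. The thresholds of the study's results text were a log2 fold change past 0.35 in size and p under 0.05, taken here as p before adjustment, which the text does not specify. By these, 5 members rose with the label MED30, where 10.5% of genes did: PSD2, NRG2, MALINC1, PURA and IGIP. With the label MYC 4 rose, where 7.79% of genes did: PSD2, NRG2, MALINC1 and IGIP. With the label MED30&MYC 5 rose, where 7.89% did: PSD2, NRG2, MALINC1, IGIP and CYSTM1. HBEGF fell there, as 4.95% of genes did. In bulk libraries, a change in every cell and a change in a share of the cells cannot be told apart.

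**Figure D1:**
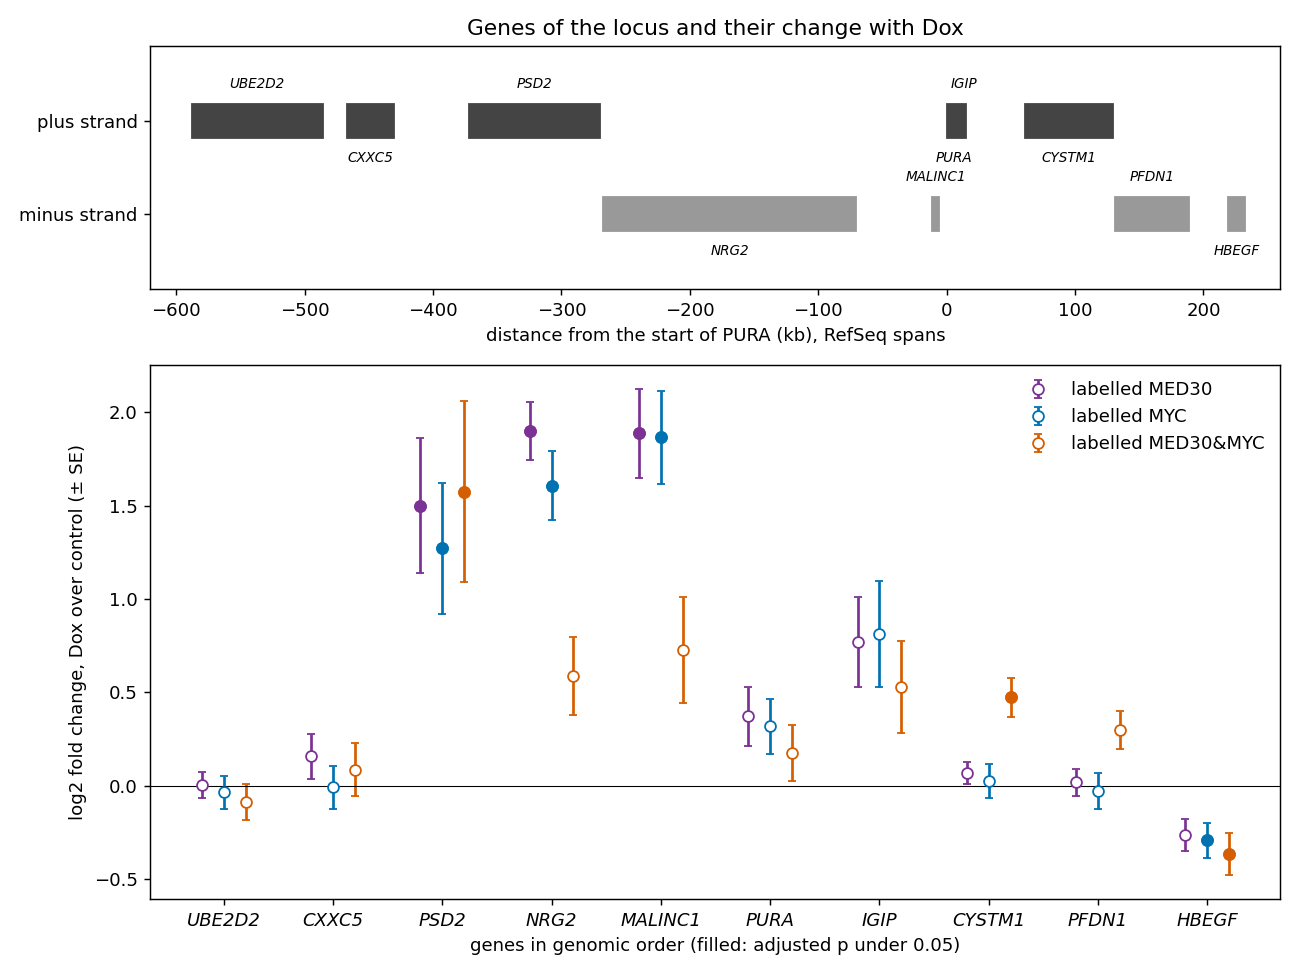
The upper panel maps the RefSeq spans of the 10 genes by strand against the distance from the start of PURA in kb, and the lower panel gives the log2 fold change of Dox over control for each gene in genomic order, with its SE, in the libraries labelled MED30, MYC and MED30&MYC (2 against 2 each). Filled points passed an adjusted p of 0.05, and NRG2 lies at 1.90, 1.61 and 0.59, between UBE2D2 near 0 on the left and HBEGF below 0 on the right.

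NRG2, the neuregulin gene, stood at 3.74 and 3.55 CPM in the 2 controls labelled MED30 and at 14.3 and 13.6 CPM after Dox (CPM, as for all levels below, is the deposited value over the TMM-scaled library total, in parts per 1000000). The controls labelled MYC stood at 4.37 and 4.51 and the libraries after Dox at 13.9 and 13.2. With and without Dox the libraries of both labels lay far apart, and replicates differed by little. The log2 fold change was 1.90 ± 0.16 (SE) with the label MED30 (3.73-fold, adjusted p = 0.000163) and 1.61 ± 0.18 with the label MYC (3.05-fold, adjusted p = 2.61e-07). NRG2 went from 6.66 and 2.94 CPM to 8.76 and 9.92 with the label MED30&MYC, where the low control rested on 4 reads. Its log2 fold change there was 0.59 ± 0.21, which did not pass (adjusted p = 0.0937), and was 0.49 without that control. Without MED30&MYC control 1 instead, so that the control rested on those 4 reads, it was 1.69 (adjusted p = 0.17).

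MALINC1, the non-coding RNA gene between NRG2 and PURA, rose as well with the labels MED30 and MYC. Its values were 2.11 and 1.94 CPM in the controls labelled MED30 and 6.34 and 9.83 after Dox. They were 2.06 and 1.79 with the label MYC, and 5.62 and 8.40 after Dox. The 2 Dox libraries of each label differed more from each other than their controls did, but all lay well above the controls. The log2 fold changes were 1.89 ± 0.24 (3.70-fold, adjusted p = 0.00126) and 1.86 ± 0.25 (3.64-fold, adjusted p = 3.31e-06). With the filter on low values lifted, the adjusted p with the label MED30 was 0.0546. MALINC1 went from 3.06 and 2.94 to 5.39 and 4.73 CPM with the label MED30&MYC, the groups did not overlap, and the log2 fold change of 0.73 ± 0.29 did not pass (adjusted p = 0.134). Without the shallow control it was 0.72 (adjusted p = 0.168).

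PSD2, the ARF6 exchange factor gene that ends beside NRG2, had few counts in every library. In the libraries labelled MYC it had 23 and 49 counts without Dox and 94 and 115 with Dox, or 0.931 and 2.14 against 3.75 and 3.63 CPM. It stood at 0.813 and 2.10 CPM in the controls labelled MED30 and at 4.08 and 3.96 after Dox. Under both labels the controls differed from each other by more than 2-fold and still lay below both Dox libraries. The log2 fold changes were 1.50 ± 0.36 with the label MED30 (adjusted p = 0.0241) and 1.27 ± 0.35 with the label MYC (adjusted p = 0.0141). Both calls rested on control 1, since without it the values were 0.89 (adjusted p = 0.0919) and 0.78 (adjusted p = 0.374). In the line with both constructs, PSD2 had 22 and 0 counts without Dox and 67 and 48 with Dox, that is 0.862 CPM and not detected, against 3.14 and 1.72. A count of 0 in MED30&MYC control 2 allows up to 2.21 CPM (3 counts, counting error only), which is above the level of the second Dox library. The log2 fold change was 1.57 ± 0.48 (adjusted p = 0.0453), and without that control it was 1.46 with an adjusted p of 0.0988. The call was also lost without MED30&MYC Dox 1, at 1.10 (adjusted p = 0.295), and without MED30&MYC control 1, which left a control of 0 counts (adjusted p = 0.385).

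**Figure D2:**
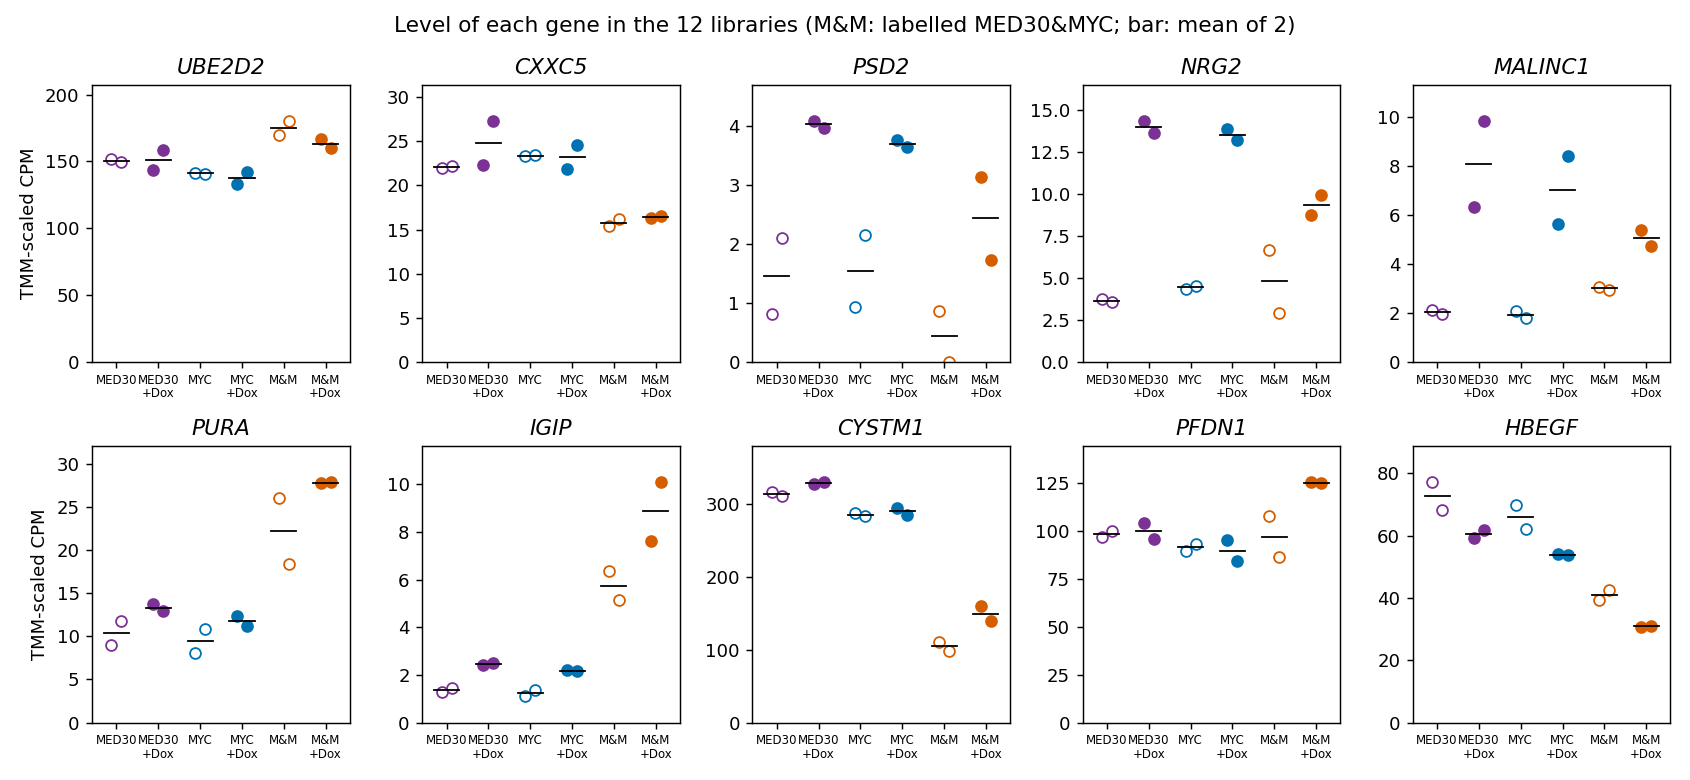
Each panel gives the level of a gene in the 12 libraries, in CPM on a linear axis from 0, with open circles for controls, filled circles for Dox and a bar at the mean of 2 libraries. NRG2 and MALINC1 rise from near 4 and 2 CPM in the libraries labelled MED30 and MYC, and PURA, IGIP and CYSTM1 differ most between the MED30&MYC line and the others.

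PURA and IGIP, which follow each other on the plus strand, lay above their controls in every Dox library of all 3 labels, but neither passed the test. PURA stood at 8.94 and 11.8 CPM in the controls labelled MED30 and at 13.7 and 12.9 after Dox. The controls labelled MYC stood at 8.09 and 10.8, and the libraries after Dox at 12.4 and 11.1. The gap between the higher control and the lower Dox library was small, and the log2 fold changes were 0.37 ± 0.16 (adjusted p = 0.145) and 0.32 ± 0.15 (adjusted p = 0.171). PURA in the libraries labelled MED30&MYC stood at 26.0 and 18.4 without Dox and at 27.7 and 27.9 with Dox, a change of 0.18 ± 0.15 (adjusted p = 0.579) that was 0.10 without the shallow control. Scaled by library size alone, the change with the label MYC was 0.47 and passed (adjusted p = 0.0324).

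IGIP stood at 1.30 and 1.45 CPM in the controls labelled MED30 and at 2.42 and 2.49 after Dox, with a log2 fold change of 0.77 ± 0.24 (adjusted p = 0.0594). Its scaled values were 8 and 9, and 16 and 17 after Dox, so it too met the filter on low values only through Dox. It went with the label MYC from 1.13 and 1.36 to 2.19 and 2.18, a change of 0.81 ± 0.28 (adjusted p = 0.0558). The replicates were close to each other, at 28 to 69 counts per library with the label MYC. Scaling by library size alone, which moves the median of all genes by 0.0999 and 0.149, gave 0.86 (adjusted p = 0.0401) and 0.96 (adjusted p = 0.021). IGIP in the libraries labelled MED30&MYC went from 6.35 and 5.15 to 7.63 and 10.1 CPM, a change of 0.53 ± 0.24 (adjusted p = 0.227) that was 0.48 without the shallow control. The non-coding gene LOC101929719, which lies between IGIP and CYSTM1 and was singled out after its values were seen, rose under all 3 labels, by 0.56 (adjusted p = 0.0408), 0.56 (adjusted p = 0.0469) and 1.02 (adjusted p = 0.00334). With the labels MED30 and MYC these calls lay near the threshold. PSD2-AS1, the only other non-member tested inside the locus, did not pass with MYC (0.28) or MED30&MYC (-0.82) and was not tested with MED30.

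CYSTM1, the small membrane protein gene, changed little in the libraries labelled MED30 and MYC. It stood at 316 and 310 CPM, and at 327 and 330 after Dox, with the label MED30, a change of 0.07 ± 0.06 (adjusted p = 0.448). The libraries labelled MYC stood at 287 and 283, and at 295 and 285 after Dox, a change of 0.02 ± 0.09 (adjusted p = 0.911), with a 95% interval of the difference from -0.16 to 0.21. Both changes were small beside those of NRG2 and MALINC1. CYSTM1 in the libraries labelled MED30&MYC stood at 111 and 98.5 CPM without Dox and at 159 and 139 with Dox. Both Dox libraries lay above both controls, and the log2 fold change was 0.47 ± 0.10 (1.39-fold, adjusted p = 0.00385). Without the shallow control it was 0.42 (adjusted p = 0.0166). The call was lost without MED30&MYC Dox 1, at 0.38 (adjusted p = 0.157), without MED30&MYC control 1, at 0.61 (adjusted p = 0.0597), and with all libraries thinned to 1257499 counts, at 0.24 (adjusted p = 0.432).

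PFDN1, the prefoldin gene that lies tail to tail with CYSTM1, did not pass under any label. It stood at 96.7 and 100 CPM in the controls labelled MED30 and at 104 and 95.5 after Dox, and the groups overlapped (0.02 ± 0.07, adjusted p = 0.89). The values with the label MYC were 89.4 and 93.1, and 95.1 and 83.9 after Dox, and the groups overlapped as well (-0.03 ± 0.09, adjusted p = 0.899). It went in the libraries labelled MED30&MYC from 108 and 86.0 to 125 and 125 CPM, a change of 0.30 ± 0.10 (adjusted p = 0.0825) that was 0.21 without the shallow control. In a fit of the 4 libraries of that line alone the change was 0.28 with an adjusted p of 0.006. Among 6 prefoldin subunits, PFDN2 was the only one that passed, with a rise of 0.39 in the libraries labelled MED30&MYC (adjusted p = 0.0349).

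UBE2D2 and CXXC5, at the left end of the locus, did not pass with any label. UBE2D2 stood at 152 and 150 CPM in the controls labelled MED30 and at 144 and 158 after Dox (0.00 ± 0.07, adjusted p = 0.984), and at 142 and 140 against 133 and 142 with the label MYC (-0.03 ± 0.09, adjusted p = 0.864). The libraries labelled MED30&MYC stood at 170 and 180 against 167 and 160 (-0.09 ± 0.10, adjusted p = 0.69). The 95% intervals of these 3 differences ran from -0.28 at the lowest to 0.16 at the highest, and no other UBE2D enzyme passed under any label. CXXC5 stood between 21.9 and 27.3 CPM in the 4 libraries labelled MED30, between 21.9 and 24.5 in those labelled MYC and between 15.4 and 16.5 in those labelled MED30&MYC. Its log2 fold changes were 0.16 ± 0.12, -0.01 ± 0.12 and 0.09 ± 0.14, and that with the label MYC changed sign with the scaling. Without the shallow control, the changes with the label MED30&MYC were -0.06 for UBE2D2 and 0.09 for CXXC5.

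HBEGF, at the right end, moved against the middle of the locus. It stood at 77.2 and 68.2 CPM in the controls labelled MED30 and at 59.3 and 61.6 after Dox, a change of -0.26 ± 0.08 (adjusted p = 0.0647). It went from 69.7 and 62.2 to 54.1 and 53.7 with the label MYC, a fall that passed (-0.29 ± 0.09, adjusted p = 0.0358). In the MED30&MYC line it went from 39.2 and 42.6 to 30.8 and 31.0, a fall that passed as well (-0.37 ± 0.11, adjusted p = 0.0451). Under all 3 labels the Dox libraries lay below the controls. Both calls lay near the threshold and were lost under many settings, with the adjusted p at 0.0679 for MED30&MYC without its shallow control, and at 0.281 for MYC and 0.0802 for MED30&MYC when libraries were scaled by size alone. The call with the label MYC was lost without either of its controls (adjusted p = 0.555 and 0.142), without MYC Dox 2 (0.0904) and without either MED30&MYC Dox library (0.0649 and 0.0651). The call with the label MED30&MYC was lost without any of the 4 libraries of that line (adjusted p from 0.0679 to 0.345) and without either control labelled MYC (0.114 and 0.115).

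NRG2 and HBEGF belong to a list of 15 ERBB ligands and receptors. With the label MED30, 11 were tested, of which NRG2, ERBB3 (0.68) and EGFR (0.28) rose and EREG (-0.68), the gene of the ligand epiregulin, fell. All 15 were tested with the label MYC, of which NRG2 and ERBB3 (0.61) rose, and EREG (-0.72), NRG1 (-0.30) and HBEGF fell. EGFR (0.44) rose with the label MED30&MYC, and NRG1 (-0.50) and HBEGF fell. The median change of the list was 0.02, 0.06 and 0.02 on the log2 scale under the 3 labels, near the medians of all genes given above. Of all genes tested, 16%, 13% and 6.74% passed under these labels, and the list counts the members NRG2 and HBEGF again.

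The response of NRG2 in the libraries labelled MED30&MYC was smaller than in those labelled MYC by 1.02 ± 0.28 on the log2 scale, and that of MALINC1 by 1.14 ± 0.38. Neither difference passed the test of the interaction over all genes (adjusted p = 0.0695 and 0.164, unadjusted p = 0.000989 and 0.00552). The responses of CYSTM1 and PFDN1 were larger in the libraries labelled MED30&MYC by 0.45 ± 0.14 (adjusted p = 0.123) and 0.33 ± 0.14 (adjusted p = 0.32). In all, 0 of 10 members passed this test in edgeR, where 1.07% of genes did, and 4 had an unadjusted p under 0.05, as 12.5% of genes did. DESeq2 passed 0 of the 6 members for which it gave an adjusted p, and it gave none for NRG2, MALINC1, PSD2 or IGIP. The value for NRG2 was 0.08 without MED30&MYC control 1, when the control rested on the 4 reads of control 2, and -1.12 without control 2. It was -0.99 without MYC Dox 1 and -1.09 without MYC Dox 2. Without MYC Dox 1 the value was -1.39 for MALINC1 and 0.47 for CYSTM1. Each of these fits left 1 library in a group and took its spread from the other groups, so they give sizes only. No such test was made against the libraries labelled MED30, whose values were scaled apart.

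Without Dox, several members differed widely between the lines. In the MED30&MYC controls, PURA was 2.61-fold higher than in the controls labelled MYC (22.2 ± 5.37 against 9.45 ± 1.92 CPM, SD, n = 2 each, adjusted p = 1.36e-08 in edgeR). IGIP was 4.95-fold higher (5.75 ± 0.848 against 1.24 ± 0.158, adjusted p = 5.84e-08). CYSTM1 was lower by 1.41 on the log2 scale (105 ± 8.69 against 285 ± 2.68 CPM, adjusted p = 2.09e-12). PURA and IGIP on one side and CYSTM1 next to them thus differed in opposite directions between the same libraries. HBEGF and CXXC5 were lower too, at log2 fold changes of -0.73 (adjusted p = 1.63e-06) and -0.59 (adjusted p = 0.000605), and UBE2D2 was higher by 0.30 (adjusted p = 0.00818). In all, 6 of 10 members passed, where 60.2% of all genes did (30% higher and 30.2% lower). The labels do not say how libraries were prepared, so the line and any difference in preparation cannot be told apart. Without the shallow control 8 members passed, where 58.8% of all genes did, NRG2 (0.59, adjusted p = 0.0175) and PFDN1 (0.25, adjusted p = 0.0373) being added.

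Per kb of RefSeq span, HBEGF was the highest of the locus in the controls under all 3 labels (4.79 CPM per kb with the label MYC, 5.28 with MED30 and 2.97 with MED30&MYC). The values labelled MED30 and MYC are not independent of each other here either. In the controls labelled MYC it was followed by CYSTM1 (4.15), PFDN1 (1.57), UBE2D2 (1.38), PURA (0.821), CXXC5 (0.638), MALINC1 (0.379), IGIP (0.360), NRG2 (0.0226) and PSD2 (0.0151). MALINC1 and IGIP were the only neighbours in this order whose libraries overlapped. In the MED30&MYC controls PURA (1.93) stood second and CYSTM1 (1.53) sixth, although the libraries of PURA, UBE2D2, IGIP, PFDN1 and CYSTM1 overlapped in part. Per kb of exons instead, CYSTM1 was the highest under all 3 labels, so the order depends on the length used, and the methods state counting over the whole gene body. Over the 8 raw count libraries, the levels of PURA were most like those of PRAME, ATG2B and ASAH2B (Pearson r of log2 CPM of 0.997, 0.994 and 0.994) and those of CYSTM1 most like those of ARVCF, UNK and SERHL2 (0.999, 0.997 and 0.997), among 13823 genes. These libraries come from 2 lines, and those of a label share their line, so the likeness is a description only.

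Outside the locus, genes within 1000 kb were read in the same way. Of all genes tested, 16% passed with the label MED30, 13% with MYC and 6.74% with MED30&MYC. On the left, beyond UBE2D2, 13 genes were tested with the label MYC, of which STING1 (1.13, adjusted p = 0.000694), the gene of an adaptor of DNA sensing, and DNAJC18 (0.56, adjusted p = 0.00689) rose and HSPA9 (-0.32) fell. The genes STING1 (1.08), DNAJC18 (0.62), SMIM33 (0.91) and PROB1 (0.53) rose with the label MED30 among 17 tested, and HSPA9 (-0.26) fell. DNAJC18 rose also with the label MED30&MYC (0.68, adjusted p = 0.00725) and STING1 stood at -0.02. On the right, beyond HBEGF, no gene passed with the labels MYC or MED30&MYC among 36 tested each. Among 38 tested with the label MED30, PCDHGA1 (-0.37), PCDHGA2 (-0.38) and PCDHGA3 (-0.38) fell, and these protocadherin genes share exons, so that their values are not separate measurements. PCDHGA2 and PCDHGA3 were not tested with the labels MYC and MED30&MYC, where PCDHGA1 stood at -0.14 and 0.37. The sets of genes tested on this side thus differ between the labels. UBE2D2 and CXXC5, which did not pass, thus lie between STING1 and PSD2, which rose with the labels MED30 and MYC.

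**Figure D3:**
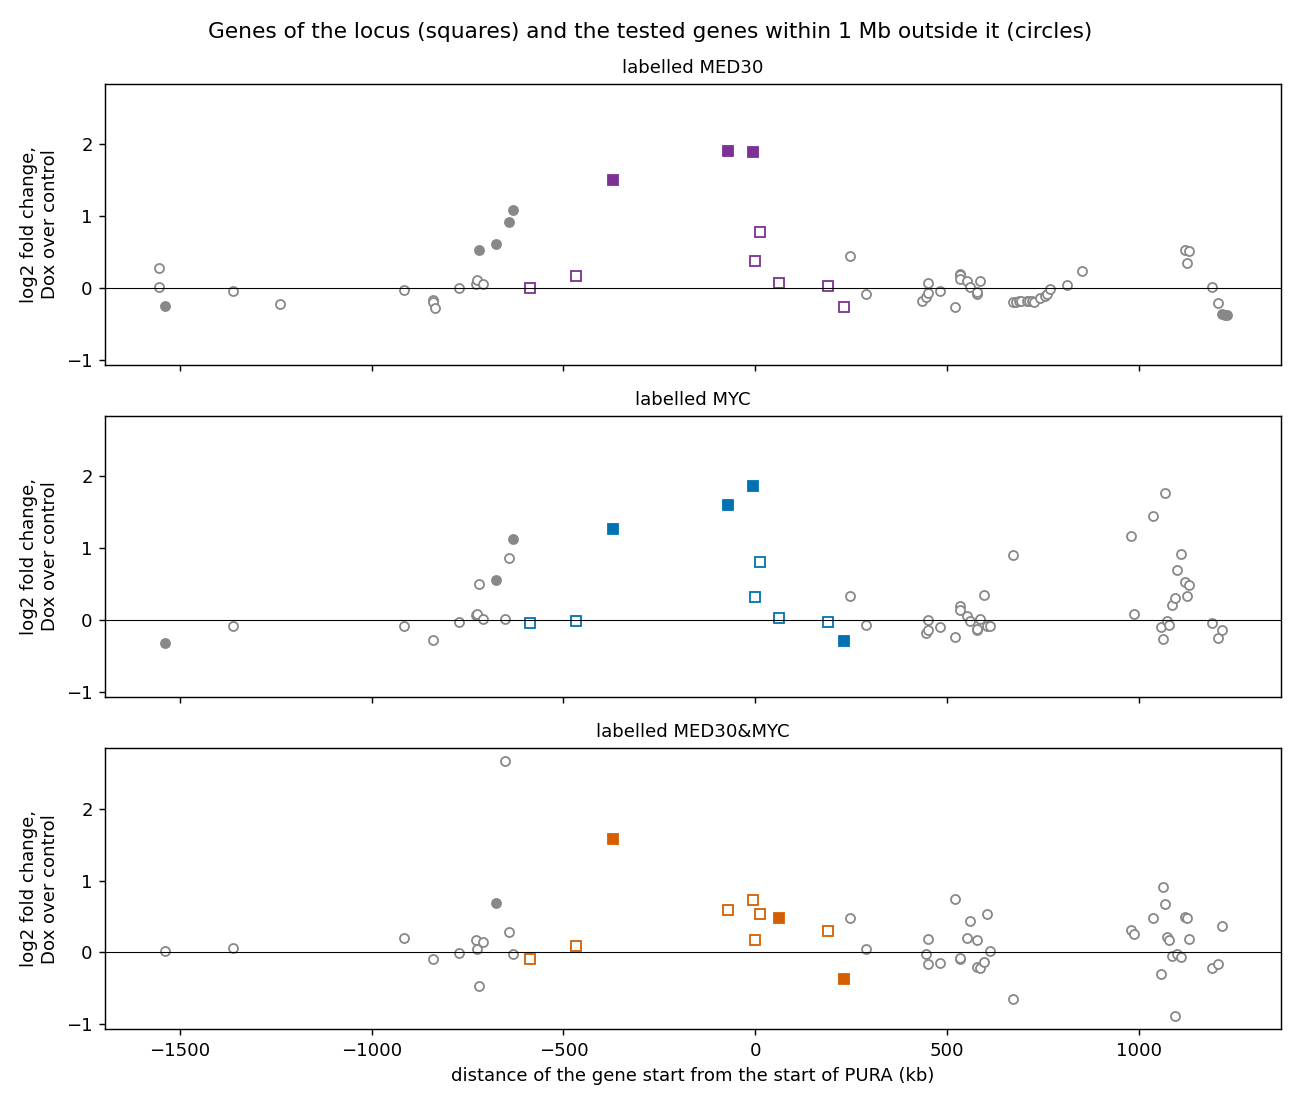
Log2 fold change of Dox over control for the 10 genes of the locus (squares) and the tested genes within 1000 kb outside it (circles), against the distance of the gene's start from the start of PURA in kb, in a panel for each label; filled symbols passed an adjusted p of 0.05. With the labels MED30 and MYC the filled squares of PSD2, NRG2 and MALINC1 lie between 1.27 and 1.90, above the open squares of UBE2D2 and CXXC5 on their left and of CYSTM1 on their right.

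Of 13 other genes of the PUR, PSD, prefoldin and UBE2D families, 2 of 11 tested passed with the label MED30, 2 of 13 with MYC and 3 of 13 with MED30&MYC, where 16%, 13% and 6.74% of all genes passed. Of the PUR family, PURB fell with the labels MED30 (-0.54, adjusted p = 0.00286) and MYC (-0.59, adjusted p = 0.000137), while PURA did not pass. Of the PSD family, PSD4 fell under all 3 labels (-0.41, -0.45 and -0.41), and PSD rose with the label MED30&MYC (0.42, adjusted p = 0.0226).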

How the data were processed

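By the methods, trimmed reads (Trim Galore) were mapped to hg38 with Bowtie2, whose version is not given in the sources used here. They are stated to have been counted with featureCounts 2.0.3 across the whole body of each gene on its sense strand. For the labels MYC and MED30&MYC the 8 deposited tables hold raw counts. For the label MED30 the 4 deposited tables hold a score: their values had been brought to nearly equal totals (6379143 to 6519353) and rounded, by a scaling that is not stated. These 4 tables hold 25056 symbols against 28278, and some genes left the nearly fixed ratio to the libraries labelled MYC. KRT8 and KRT18 stood at 1122 and 1178 in MED30 control 1, against 6031 and 3037 counts in MYC control 1. Whether the scaled tables were counted in the same way as the others is not known. Their depth is unknown, and no test joined them with the other tables. No spike-in values were used, so a change of all genes together cannot be seen.

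Counts were tested in edgeR 4.0.16 under R 4.3.3 (TMM, filterByExpr, glmQLFit and glmQLFTest, the 8 libraries in 1 fit of 4 groups). The scaled values were tested in limma 3.58.1, with eBayes and its trend option, as log2(TMM-scaled value + 1), over genes at 10 or more in at least 2 libraries, so that fold changes of low genes there are understated. P-values were adjusted by Benjamini-Hochberg over all genes tested, and a gene passed at 0.05. The procedure was tested on simulated data in which only genes of higher mean value changed and all groups had the same spread. That test therefore does not cover calls on low genes or groups whose replicates differ more. The groups did differ in this. The mean chi-square per gene between the 2 replicates, which also grows with depth, was 12.1 for MYC Dox and 2.31 for MYC control. It was 4.23 and 1.61 for MED30&MYC, and 3.19 and 0.605 for the scaled values labelled MED30. The fits take the spread of a gene as equal in all groups. The 95% intervals come from these fits and hold the spread between libraries, whereas the floor of 3 counts covers counting error only.

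The alternatives were other scalings, no filter, DESeq2 1.42.0, edgeR on the scaled values taken as counts, other pseudocounts, the replicate number as a block, counts thinned to the smallest library, 4 libraries per fit, and leaving out each library. The crossed block and the alternatives of the comparison between controls were chosen after seeing the data. All 10 members were named, with called genes of the lists (up to 6 each by p), MED30 and MYC, and the 3 genes most like PURA and CYSTM1. The members and lists were chosen with earlier results of these data known.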

Additional observations from a re-analysis of the deposited data

How the results depend on the processing

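With 2 libraries a group, precision is set by their number, and by depth for PSD2, IGIP and MALINC1 and for MED30&MYC control 2. Members passing with the label MED30 numbered 3, against 1 without the filter on low values, 0 with DESeq2 (which gave an adjusted p for 5 members, not for PSD2, NRG2 or MALINC1) and 2 to 5 on leaving out each library. With the label MYC 4 passed, against 2 with DESeq2 (9 members with an adjusted p), 1 with counts thinned to the smallest library, and 2 to 4 on leaving out each library. With the label MED30&MYC 3 passed, against 1 with DESeq2, 0 with thinned counts and 0 to 5 on leaving out each library. In the difference of responses 0 passed, against 1 without the filter and 0 to 3 on leaving out each library. Between the controls 6 passed, against 2 with thinned counts and 5 to 9 on leaving out each library.

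Over all genes, 2364 passed with the label MED30, against 359 without the filter, 956 with DESeq2, and 761 to 6770 on leaving out each library. With the label MYC 2518 passed, against 749 with thinned counts and 778 to 4168 on leaving out each library. With the label MED30&MYC 1302 passed, against 506 with thinned counts, 2155 in a fit of its 4 libraries and 166 to 2410 on leaving out each library. In the difference 207 passed, against 36 with thinned counts, 316 without the filter, 326 scaled by library size and 18 to 876 on leaving out each library. Between the controls 11635 passed, against 6294 with thinned counts and 5729 to 12482 on leaving out each library.

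Leaving out 1 library leaves 1 in its group, which is then assumed to vary like the other groups (in the MED30 tables, like the other group alone). In such fits members passed that had not: CXXC5 without MED30 Dox 1 (0.30), PURA without MED30 Dox 2 (0.42) and HBEGF without either (-0.24 and -0.29) with the label MED30, where 46.5% and 31.5% of all genes passed, so little can be read from it. With the label MED30&MYC these were PFDN1 without MYC Dox 1 or 2 (0.28 and 0.27) and NRG2 without MYC Dox 2 (0.57). Between the controls, UBE2D2 was lost without MYC control 1 (0.31) or 2 (0.30) and CXXC5 without MED30&MYC control 1 (-0.54), while PSD2 passed without MYC control 1 (-1.42), NRG2 and MALINC1 without MYC Dox 1 (0.51 and 0.66) or 2 (0.51 and 0.66), and PFDN1 without MYC Dox 2 (0.19).

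Equal replicate numbers mark no known pairing, with 2 pairs a line. Deviations of same-numbered libraries correlated at -0.18 (MED30), -0.20 (MYC) and -0.04 (MED30&MYC). With the replicate number as a block 3, 3, 2, 0 and 6 members passed in the 5 comparisons (MED30, MYC, MED30&MYC, difference and controls), and 2523, 1812, 929, 139 and 10066 of all genes. With crossed numbers 5 members and 4004 genes passed with the label MED30, and 5 members and 3081 genes with the label MYC.

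Of 695 alternative values of single members, 31 had the opposite sign, none of them past the threshold on either side. UBE2D2 with the label MED30 was -0.0087 with the size factors of DESeq2, -0.0090 with DESeq2 and -0.010 with no filter. With the label MYC, scaling by library size gave 0.12 for UBE2D2, 0.14 for CXXC5 and 0.12 for PFDN1, thinned counts gave 0.042 for UBE2D2, 0.17 for CXXC5 and -0.094 for PURA, and CXXC5 was 0.0052 with the size factors of DESeq2, 0.0041 with DESeq2 and 0.016 in the fit of 4 libraries. In the difference, thinned counts gave -0.13 for CXXC5 and 0.52 for PURA. On leaving out each library, the values that changed sign ran from -0.066 to 0.067 for UBE2D2 and -0.047 to 0.080 for PFDN1 with the label MED30. With the label MYC they ran from -0.064 to 0.011 for UBE2D2, -0.072 to 0.068 for CXXC5, -0.0039 to 0.071 for CYSTM1 and -0.12 to 0.082 for PFDN1. In the difference they ran from -0.39 to 7.46 for PSD2 (the upper value rests on a count of 0 and is no fold), -1.12 to 0.082 for NRG2, -0.35 to 0.30 for PURA and -0.16 to 0.0051 for HBEGF. Between the controls they ran from -0.60 to 0.59 for NRG2 and -0.096 to 0.25 for PFDN1. The cause of these shifts was not tested.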
